A study of Drosophila melanogaster with 6 samples.

Results

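The genes described here are 9 odorant-binding protein genes of Drosophila melanogaster that are known from the antenna or from many tissues, namely lush, Obp28a, Obp44a, Obp69a, Obp83a, Obp83b, Obp99a, Obp99b and Obp99c. They were chosen by symbol, as the members of the family outside the Obp18 to Obp19, Obp49a, Obp56 and Obp57 groups that are best known from the antenna or from tissues beyond the taste organs. Of the 52 odorant-binding protein genes listed, 48 had a probe set matched to that gene alone, and 8 of the 9 genes described here were among them. No probe set was named for Obp83a in the annotation used, so that gene was not analysed here. Each of the other 8 had 1 probe set. RNA came from dissected proboscises of males that carried the poxn70 allele either on both chromosomes (homozygous) or on 1 of them (heterozygous), so every fly in the study carried at least 1 mutant copy and no group was wild type. Males were kept at room temperature until 8 to 18 days after eclosion, 164 to 280 proboscises were pooled for each array, and each genotype had 3 biological replicates on 1 array each. Poxn (Pox neuro) is a transcription factor of the paired class through which bristles become taste bristles, with touch bristles forming in its absence, and the comparison asks which transcripts of this taste organ depend on it. Whole proboscises hold taste bristles, muscle, glia, fat body and blood cells, and in such bulk RNA fewer cells of a type and less RNA per cell cannot be told apart.

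Odorant-binding proteins are small secreted proteins of the fluid around chemosensory dendrites. They are made mostly by the support cells of a sensory hair, bind hydrophobic odorants and pheromones, and carry them or alter their contact with receptors on the neuron. lush, Obp83a and Obp83b (OS-F and OS-E in older work) belong to hairs of the antenna, lush being required for the normal response of Or67d neurons to the male pheromone cis-vaccenyl acetate. Obp28a is an abundant antennal protein, and Obp69a is an antennal protein linked to social responses to the same pheromone. Obp44a is a lipid carrier of glia in the central nervous system, and Obp99b (also tsx) is a male-biased gene of the fat body in the head. Obp99a and Obp99c are also transcribed outside the olfactory organs. In the RefSeq gene order Obp83a and Obp83b are direct neighbours on chromosome arm 3R, the Obp99 genes lie further along the same arm, lush and Obp69a lie on 3L, Obp28a on 2L and Obp44a on 2R.

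All levels are log2 GCRMA values, an array measure on which 1 unit stands for a doubling of signal, and all differences are homozygous minus heterozygous. Values under 3 were treated as background, a limit chosen after the values were seen. The lowest mean correlation with the other arrays of its own genotype belonged to homozygous replicate 1 (0.972), against 0.982 and 0.983 for the other homozygous arrays and 0.991 to 0.994 for the heterozygous ones. The probe set of Poxn itself lay under the limit on all 6 arrays and gave no check of the genotype labels. Values for the fits without homozygous replicate 1 stand beside the differences it touches most.

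Of the 8 genes measured, 7 gave signal above background in the proboscis, and 0 passed the genotype test. Obp99a lay under the limit on all 6 arrays, between 2.18 and 2.19, and has no fold. In the limma fit over 18769 probe sets, 0.373% were called at an adjusted p under 0.05, 0.314% lower and 0.0586% higher, so a count of 0 among 8 genes lies near the background. At an unadjusted p under 0.05, 1 of the 8 was found (Obp99b, higher), where 7.24% of all probe sets were. The SE, interval, adjusted p and permutation p given for each gene are unpaired unless a block is named. Same-numbered arrays of the genotypes were treated as pairs only in the fits with a block, on a check of the data. With the number as a block limma called 0 of the 18769 probe sets, with 606 lower and 2022 higher at an unadjusted p under 0.05. The SE went from 0.38 to 0.20 for Obp28a and from 0.88 to 0.43 for Obp99c, but from 1.81 to 1.93 for Obp83b. Under the block 0 of the 8 genes passed, and Obp28a was the 1 gene with an unadjusted p under 0.05 (0.0295, adjusted p = 0.334). Groups did not overlap for 2 of the 7 genes above background, Obp28a and Obp99b, both with the homozygous arrays higher. Non-overlap was found in 22.9% of all probe sets (18.5% higher, 4.48% lower) and in 21.4% of those with a value above the limit (13.0% higher), so 2 of 7 lies near the background. The 7 genes had 5 higher and 2 lower homozygous means and a median difference of 0.40, against a median of 0.04 over the 9724 probe sets above the limit. With 3 arrays against 3, the smallest p of an exact two-sided permutation test is 0.1.

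**Figure D1:**
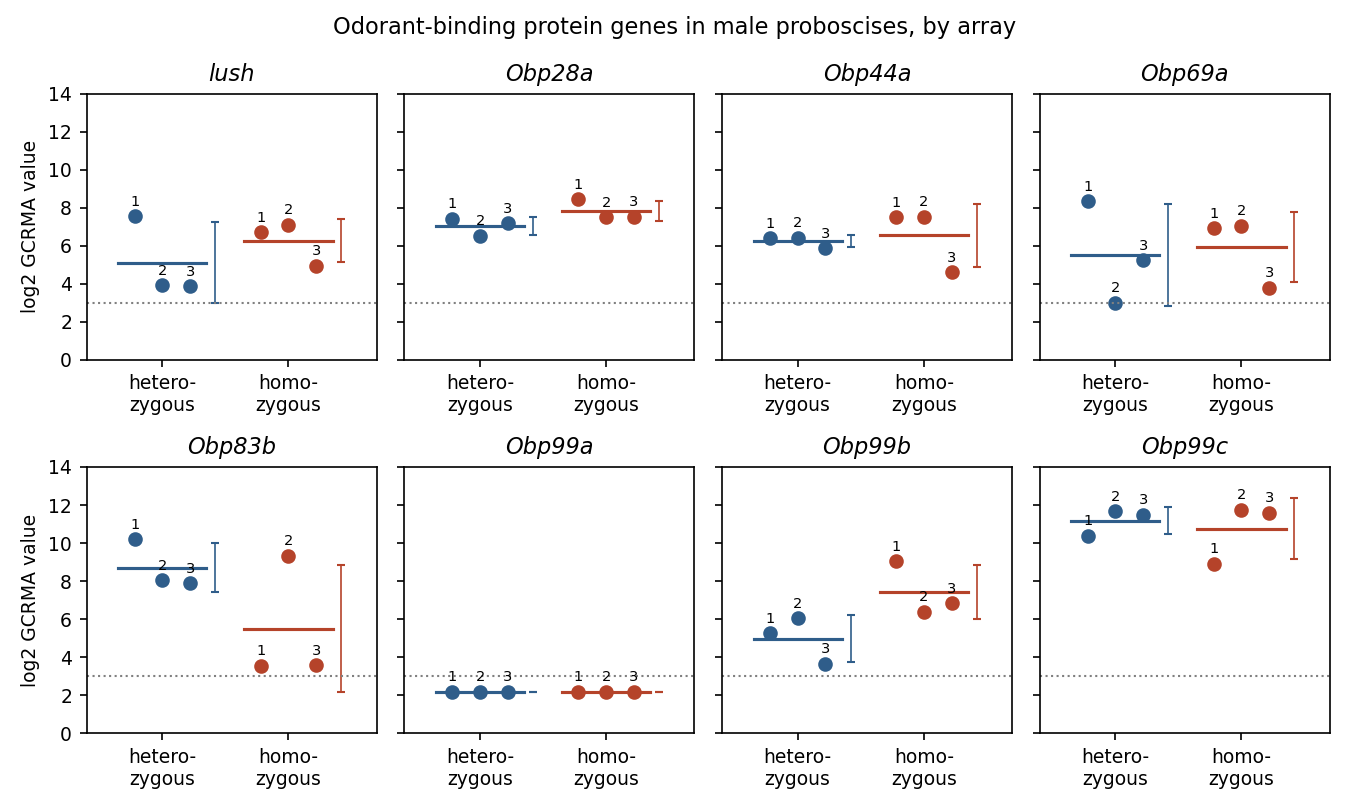
Log2 GCRMA values of 8 odorant-binding protein genes on the 6 arrays, with heterozygous arrays in blue and homozygous arrays in red. Digits are replicate numbers, horizontal bars are group means, the error bars beside them are the SD over 3 arrays, and the dotted line is the background limit of 3. Obp99a lies under the limit throughout, Obp28a and Obp99b are the genes whose groups do not overlap, and lush, Obp69a and Obp83b are spread widely within a genotype.

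Obp99b, the male-biased fat body gene, had the largest positive difference of the 7. Its values were 9.05, 6.38 and 6.82 in homozygous replicates 1, 2 and 3 and 5.24, 6.04 and 3.66 in heterozygous replicates 1, 2 and 3. Every homozygous array was above every heterozygous one, though the closest pair of values, 6.38 and 6.04, differed by far less than the spread within either group. The means were 7.42 ± 1.43 (SD, n = 3) and 4.98 ± 1.21 (SD, n = 3), a 5.42-fold difference (2.44 ± 0.96 (SE) on the log2 scale, 95% interval 0.0052 to 4.87), which limma did not call (adjusted p = 0.611). The exact permutation p was 0.1. Without homozygous replicate 1 the difference was 1.62, and without heterozygous replicate 3 it was 1.78. Of the 12 fat body markers listed, 8 had a value above the limit, and limma called 0 (smallest adjusted p 0.0984). Without overlap 3 of the 8 were lower and 1 higher, where 816 and 1262 of the 9724 probe sets above the limit were. The summed fat body level (log2 of the summed unlogged values) was 14.62 to 14.71 in homozygotes and 14.83 to 15.19 in heterozygotes. Most of that sum came from its brightest genes, apolpp and fon. The lipophorin precursor apolpp stood at 14.11 ± 0.13 (SD, n = 3) against 14.07 ± 0.21 (SD, n = 3). The gene fon was lower in homozygotes, at 12.57 ± 0.22 against 13.70 ± 0.16 (SD, n = 3 each), so the order of the sums rested largely on fon. The fat body storage and binding protein genes Lsp2, Fbp1 and Fbp2 lay under the limit on every array. The part of these cells in the Obp99b values was not tested.

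Obp28a, the abundant antennal protein, had the smallest spread of the 7 and a small shift. The homozygous arrays gave 8.45, 7.48 and 7.52, and the heterozygous arrays 7.42, 6.52 and 7.17. The groups did not overlap, but the lowest homozygous array exceeded the highest heterozygous one by little (7.48 against 7.42). The means of 7.82 ± 0.55 (SD, n = 3) and 7.04 ± 0.47 (SD, n = 3) differed 1.72-fold (0.78 ± 0.38 (SE) on the log2 scale, 95% interval -0.18 to 1.74; limma adjusted p = 0.611). Without homozygous replicate 1, its highest array, the difference was 0.47. By replicate number the differences were 1.02, 0.96 and 0.36, and the arrays numbered 1 were the highest of each genotype.

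Blood cell markers had mostly higher homozygous means, without a call. Higher means were also found for 5 of the 7 genes, and for 5270 of the 9724 probe sets above the limit. Of 7 hemocyte genes, all above the limit, 6 had higher means and crq a lower one, 3 were higher without overlap (Hml, PPO1 and Sr-CI; background share above the limit 13.0%), 4 overlapped, and 0 were called (smallest adjusted p 0.0614). Their summed level was 12.75 to 12.92 in homozygotes and 12.45 to 12.60 in heterozygotes. Whether the blood cell values bear on any of the odorant-binding protein genes was not tested.

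lush, the pheromone-binding protein, fell into high and low arrays that did not follow genotype. Its values were 6.71, 7.10 and 4.95 in homozygotes and 7.55, 3.91 and 3.88 in heterozygotes. The highest of all 6 values was heterozygous replicate 1, and the other heterozygous arrays were the lowest. The means of 6.25 ± 1.14 (SD, n = 3) and 5.11 ± 2.11 (SD, n = 3) differed by 1.14 ± 1.22 (SE) on the log2 scale (95% interval -1.96 to 4.25; limma adjusted p = 0.630). Without heterozygous replicate 1 the difference was 2.36, with an unadjusted p of 0.0332 and an adjusted p of 0.852. It was 0.54 without heterozygous replicate 2 and 0.53 without heterozygous replicate 3, and 0.72 to 1.79 without 1 homozygous array.

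Obp69a followed much the same arrays. It stood at 6.93, 7.04 and 3.80 in homozygotes and at 8.35, 2.99 and 5.23 in heterozygotes. Heterozygous replicate 1 was again highest, heterozygous replicate 2 lay at the background limit, and the homozygous range lay inside the heterozygous one. The difference was 0.40 ± 1.65 (SE) on the log2 scale (means 5.92 ± 1.84 and 5.52 ± 2.69, SD, n = 3 each; 95% interval -3.79 to 4.59; limma adjusted p = 0.891). Its sign turned without homozygous replicate 1 (-0.11), without homozygous replicate 2 (-0.16) and without heterozygous replicate 2 (-0.87).

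Obp83b, an antennal protein of the same kind of hair as lush, had the largest negative difference of the 7 and the widest spread. The homozygous arrays gave 3.54, 9.34 and 3.57 and the heterozygous arrays 10.20, 8.04 and 7.89. Homozygous replicates 1 and 3 lay just over background, while homozygous replicate 2 was above 2 of the 3 heterozygous arrays, so the groups overlapped. The means of 5.48 ± 3.34 (SD, n = 3) and 8.71 ± 1.29 (SD, n = 3) gave a difference of -3.23 ± 1.81 (SE) on the log2 scale, which is 9.38-fold lower (95% interval -7.81 to 1.36; limma adjusted p = 0.611). Homozygous replicate 2 decided its size: without that array the difference was -5.16, with an unadjusted p of 0.00253 and an adjusted p of 0.288. Without homozygous replicate 1 it was -2.26, and without both arrays numbered 1, a setting added once the values were known, -1.51. The exact permutation p over all 6 arrays was 0.3.

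**Figure D2:**
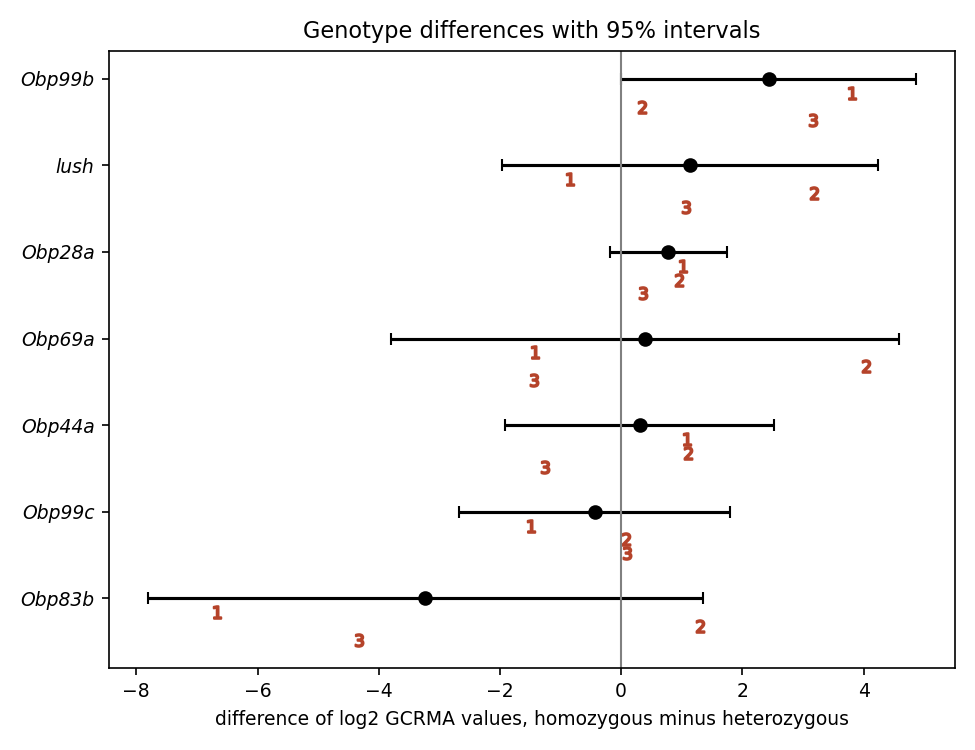
Homozygous minus heterozygous differences of log2 GCRMA values for the 7 genes above background (black points) with limma 95% intervals, and the difference of each same-numbered pair of arrays as a red digit. All intervals but that of Obp99b span 0, and the pairs of lush, Obp69a, Obp44a, Obp99c and Obp83b lie on both sides of 0.

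Obp44a, the glial lipid carrier, differed little on average, with 1 array setting the result. Its values were 7.48, 7.51 and 4.59 in homozygotes and 6.40, 6.41 and 5.86 in heterozygotes. Homozygous replicates 1 and 2 were above all heterozygous arrays, and homozygous replicate 3 was below them all. The means were 6.53 ± 1.68 (SD, n = 3) and 6.22 ± 0.32 (SD, n = 3), a difference of 0.31 ± 0.87 (SE) on the log2 scale (95% interval -1.91 to 2.52; limma adjusted p = 0.842). Without homozygous replicate 3 the difference was 1.28, without homozygous replicate 1 it was -0.17, and without homozygous replicate 2 it was -0.18. Of 8 glial genes with a probe set, 5 were above the limit, and the summed glial level was 13.56 to 14.23 in homozygotes and 13.77 to 13.97 in heterozygotes. Of those 5, 4 had lower homozygous means and 1, Gs2, a higher one, with 0 called. Gs2 was the brightest of them and made up the largest part of each sum. The transcription factor that defines glia, repo, stood at 8.84, 8.48 and 8.48 in homozygotes and at 9.22, 8.83 and 8.95 in heterozygotes. A receptor of glia at the blood-brain barrier, moody, stood at 11.63, 10.99 and 11.07 in homozygotes and at 11.38, 11.36 and 11.42 in heterozygotes. In homozygotes the other 3 were Gs2 at 12.57, 13.78 and 13.68, nrv2 at 10.57, 10.66 and 10.54 and CG6126 at 9.65, 10.05 and 10.13. The genes alrm, wrapper and Gat lay under the limit throughout. The part of glia in the Obp44a values was not tested.

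Obp99c was at 8.90, 11.76 and 11.59 in homozygotes and at 10.39, 11.67 and 11.49 in heterozygotes. The arrays numbered 1 were the lowest of each genotype, and the remaining 4 lay within 11.49 to 11.76. The muscle marker up (troponin T) had the same low arrays, at 6.83, 11.88 and 11.20 in homozygotes and 9.18, 11.42 and 11.50 in heterozygotes, whereas Act88F, bt and sls were not lowest in both arrays numbered 1. All 4 muscle genes with a probe set overlapped between genotypes, with a summed level of 13.67 to 14.03 in homozygotes and 13.64 to 13.996 in heterozygotes, and the part of muscle in the Obp99c values was not tested. The neuronal marker elav was lowest in homozygous replicate 1 (6.28), but heterozygous replicate 1 (8.61) was close to heterozygous replicate 2 (8.68). The difference was -0.43 ± 0.88 (SE) on the log2 scale (means 10.75 ± 1.60 and 11.18 ± 0.69, SD, n = 3 each; 95% interval -2.67 to 1.80; limma adjusted p = 0.779). Without homozygous replicate 1 it was 0.49, and without both arrays numbered 1 it was 0.095.

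Replicate arrays varied widely for most of these genes. The pooled within-genotype SD had a median of 0.330 over the 9724 probe sets with a value above the limit, and 6.99% of them exceeded 1. Among the 7 genes it ran from 0.508 (Obp28a) to 2.53 (Obp83b), and 6 of 7 exceeded 1. Obp83b had a wider spread than 99.6% of those probe sets, Obp69a than 99.4%, lush than 98.1%, Obp99b than 96.2%, Obp99c than 95.5% and Obp44a than 95.3%. Obp28a was wider than 73.0%. A spread of this size leaves intervals for lush, Obp69a and Obp83b that reach more than 3 log2 units to at least 1 side, so large differences between genotypes could not have been detected in these genes, and the adjusted p values do not show that the genotypes were alike. These shares were not matched for signal level. Wide spread was also found outside the set, as Obp19a (2.69) and Obp19b (1.58) exceeded 1. The median over the other 18 genes of the family above the limit was nevertheless 0.397. The spread of Obp19b lay in its homozygous arrays (SD 2.23, against 0.18 in heterozygotes). Those arrays were lower without overlap (log2 difference -9.14, limma adjusted p = 0.0663).

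**Figure D3:**
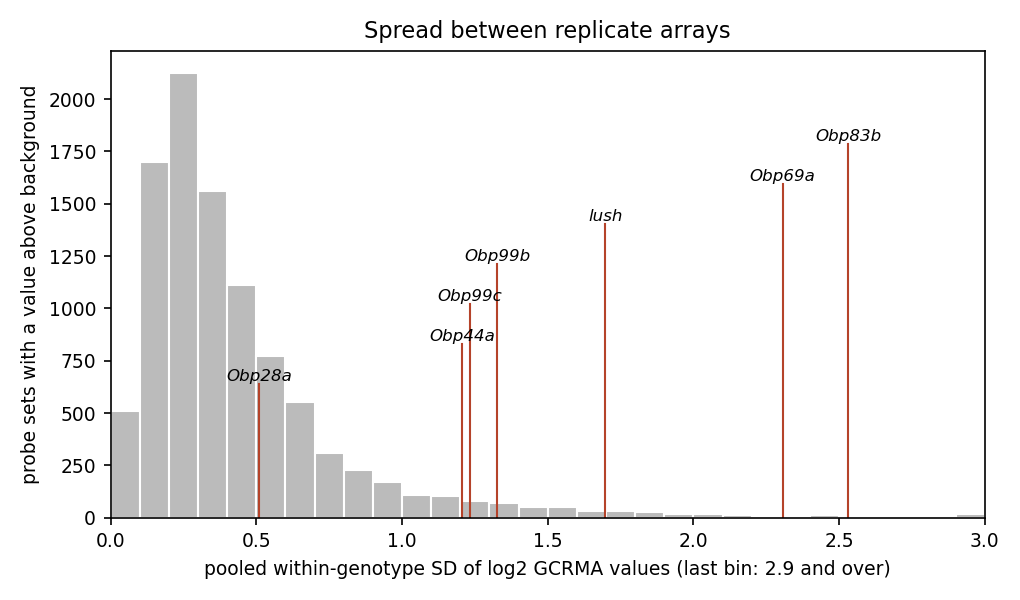
Pooled within-genotype SD of log2 GCRMA values over the 9724 probe sets with a value above the background limit (grey bars, bins of 0.1, the last bin holding all larger values), with the 7 genes marked in red. The median probe set had an SD of 0.330, and 6 of the 7 genes lie above 1.

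Some other genes known from olfactory organs were high on the same arrays as lush, Obp69a and Obp83b, and others were not. a10, an antennal protein that also goes by OS-D, stood at 7.62, 7.20 and 6.94 in homozygotes and at 7.80, 4.29 and 4.33 in heterozygotes, so it shared with lush the 2 low heterozygous arrays but was high in homozygous replicates 1 and 3, where Obp83b was near background. a5, another antennal protein gene, was above background only in heterozygous replicate 1 (5.82) and homozygous replicate 2 (3.74). Obp19a, chosen after its values were seen, had the same pair of arrays at 7.85 and 5.96 and the other 4 at 2.35 each. Those arrays also held the highest values of lush, Obp69a and Obp83b. The co-receptor Orco was highest instead in heterozygous replicates 2 and 3 (5.95 and 6.69), and Snmp1 was lower in heterozygous replicate 1 (8.01) than on any array but homozygous replicate 1 (7.74). Obp28a was highest in homozygous replicate 1 (8.45), with 7.48 in homozygous replicate 2 and 7.42 in heterozygous replicate 1. Most listed receptors of antennal neurons gave no signal above the limit, although Orco did on every array (3.37 to 6.69). Of 17 antennal markers 15 lay under the limit on all 6 arrays, Or22a, Or42b, Or47b and Ir84a among them, and the others were a10 and Or43b, which passed the limit in homozygous replicate 1 alone (3.30). The summed level of the 16 antennal markers other than a10 was 6.25 to 6.30 in homozygotes and 6.24 to 6.25 in heterozygotes. With 15 of them under the limit, that sum is mostly background and does not measure antennal tissue. All 7 receptors of the maxillary palp, the second olfactory organ, lay under the limit on every array. Their summed level, likewise background, was 5.03 to 5.05 in homozygotes and 5.02 to 5.03 in heterozygotes. The part of antennal tissue in the values of lush, Obp69a and Obp83b was not tested.

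**Figure D4:**
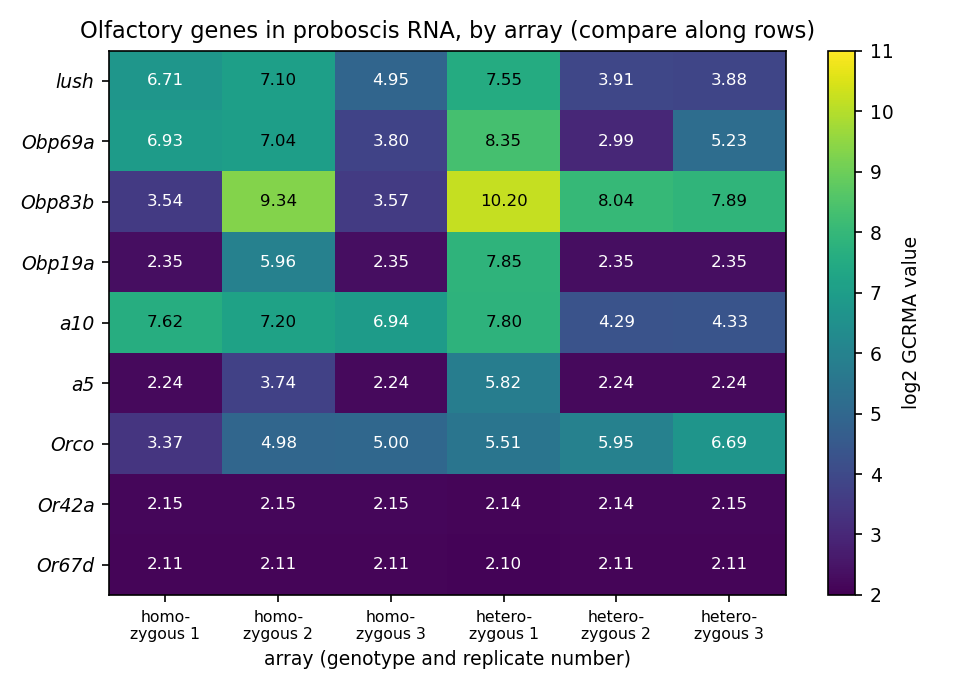
Log2 GCRMA values (colour and printed number) of 9 olfactory genes on the 6 arrays, to be compared along each row only. Homozygous replicate 2 and heterozygous replicate 1 hold the highest values of lush, Obp69a, Obp83b, Obp19a and a5. In contrast, a10 is highest in the arrays numbered 1 of both genotypes and Orco in heterozygous replicates 2 and 3. The receptors Or42a (maxillary palp) and Or67d (antenna) stay near 2 on all arrays. Obp28a and Snmp1, which do not have the pattern of lush, are not shown.

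Genes that act with these binding proteins in odour and pheromone reception were compared as a fixed list. A probe set was found for 14 of them. Signal passed the limit in 7, and limma called 2 lower and 0 higher, where 0.314% and 0.0586% of all probe sets were. Snmp2, a CD36 family protein related to the pheromone co-receptor Snmp1, stood at 8.36, 8.51 and 9.21 in homozygotes and at 11.55, 11.77 and 11.81 in heterozygotes. It fell 8.08-fold (limma adjusted p = 0.0274). Cyp6a20, a cytochrome P450 of antennal support cells linked to male aggression, stood at 8.78, 9.52 and 9.49 against 11.65, 12.03 and 12.35, and fell 6.71-fold (limma adjusted p = 0.0442). Both calls ended with the replicate block (adjusted p = 0.267 for each), as did all others, with the differences unchanged at -3.01 and -2.75. They were kept with the number as a random block (adjusted p 0.00777 and 0.0108) and with the replicate block and the dimmer 50% of probe sets left out (0.0240 and 0.0207). Of the 6 fits that left out 1 array, Snmp2 kept its call only without homozygous replicate 3 (adjusted p 0.0311, and 0.0503 to 0.178 in the rest) and Cyp6a20 in none (0.0530 to 0.254), both with the same sign throughout. Orco, the shared odorant co-receptor, was at 3.37, 4.98 and 5.001 against 5.51, 5.95 and 6.69, without overlap and without a call (adjusted p = 0.611). Snmp1 itself overlapped between genotypes, at 8.90 ± 1.02 (SD, n = 3) against 8.71 ± 0.65 (SD, n = 3). The pheromone receptors Or67d, Or65a, Or47b and Or88a lay under the limit on all arrays.

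Among the other 40 odorant-binding protein genes with a probe set, 18 gave signal over the limit. Of the 40, limma called 4 lower, where 0.314% of all probe sets were, against 0 of the 8 genes described here. The difference in counts between the 2 sets was not tested. The 4 were Obp18a (-3.12), Obp56h (-4.23), Obp57c (-2.72) and Obp49a (-2.21), in log2 differences. Of the 6 fits without 1 array, Obp18a kept its call in 3 (without homozygous replicate 1 or 2 or heterozygous replicate 1), Obp56h in 1 (without homozygous replicate 1), Obp57c in 1 (without heterozygous replicate 1) and Obp49a in 0. Of those 18 genes, 9 were lower and 4 higher without overlap. Among the 9724 probe sets above the limit, 816 were lower and 1262 higher without overlap. The median difference of the 18 genes was -0.48, with a median pooled SD of 0.397 against 1.33 for the 7 genes. The 2 sets were not matched for signal level. Of 6 genes listed for the support cells and lineage of sense organs, 2 were called lower, where 0.314% of all probe sets were. nompA, which ties the dendrite to the cuticle, stood at 3.95 ± 0.10 against 8.28 ± 0.68 (SD, n = 3 each). pros, a regulator of the sense organ lineage, stood at 8.24 ± 0.34 against 11.30 ± 0.25 (SD, n = 3 each). Each of these calls was kept in 1 of the 6 fits, nompA without heterozygous replicate 1 and pros without homozygous replicate 1. The markers sv (-0.036, limma adjusted p = 0.957) and Sox15 (0.25, limma adjusted p = 0.622) overlapped between genotypes, and ase and Poxn lay under the limit. Obp99d, in the same Obp99 group but outside the set, was at 5.46, 4.73 and 4.72 in homozygotes and at 4.43, 4.71 and 3.91 in heterozygotes, also without overlap, the closest values being 4.72 and 4.71 (adjusted p = 0.611).

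**Figure D5:**
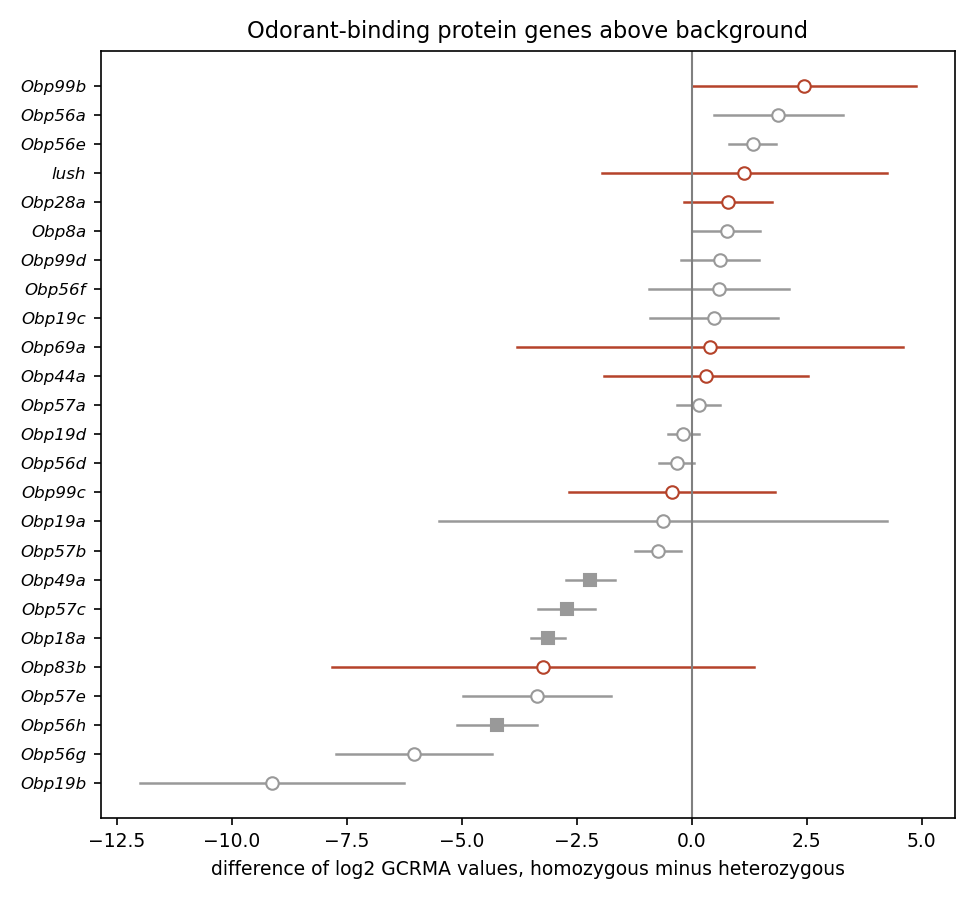
Homozygous minus heterozygous differences with limma 95% intervals for the 25 odorant-binding protein genes with a value above background, the 7 described here in red and the other 18 in grey. Filled squares are genes called at an adjusted p under 0.05, and all 4 of these are grey and below 0.

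Genes with the most similar profile over the 6 arrays were found among 5510 genes by Pearson correlation, as a description over arrays that share genotype and replicate number. For lush they were CG1902 (0.987), CG10254 (0.980) and Grip84 (0.977), and for Obp69a Stacl (0.959), HPS4 (0.948) and FoxK (0.942). For Obp83b they were CG12974 (0.999), CG13321 (0.971) and pHCl-1 (0.949), and CG12974 was likewise lowest in homozygous replicates 1 and 3, at 3.56, 6.36 and 3.54 in homozygotes and 6.87, 5.79 and 5.53 in heterozygotes. For Obp28a they were Sdhaf3 (0.994), CG33170 (0.990) and CG31207 (0.987). Obp44a was closest to Gad1 (0.979), CG13482 (0.959) and Tsp42Eq (0.953), all with their lowest value in homozygous replicate 3. Obp99b was closest to Arl8 (0.991), nero (0.987) and DNAlig4 (0.986). Obp99c was closest to Duba, SREBP (0.999 each) and CG7430 (0.998), which were also lowest in the arrays numbered 1.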

How the data were processed

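Trizol was used for extraction, and roughly 50 ng of RNA per sample went through 2 rounds of amplification into biotin-labelled cRNA for a one-colour array, per the labels' protocols. The authors deposited GCRMA output, per the submitters' processing notes. That these deposited values are log2 was read from their range (1.57 to 16.02). GCRMA corrects background from probe sequence and normalizes between arrays, which squeezes probe sets without signal into a narrow low band (48.2% had all 6 values under 3). The version, detection calls and genome build are not given in the sources used here. Precision is limited by the number of arrays.

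Of 18952 probe sets, 183 controls were left out. Genes were named from the platform annotation where it gives 1 gene (13647 probe sets, 13544 of them matched to RefSeq, Release 6 plus ISO1 MT), with the brightest probe set standing for a gene. The genotype contrast was tested by limma 3.58.1 under R 4.3.3 (lmFit, eBayes with an intensity trend) with Benjamini-Hochberg adjustment over all 18769 probe sets and a threshold of 0.05, and the fit was tested on simulated data. Named genes were the 9 genes, up to 4 per related list by p, the brightest or defining markers of cell type lists, Poxn, and 3 genes most like each gene (mean at least 5, SD at least 0.2). A few others are named to complete a count or a marker list, after their values were seen. The genes and lists were chosen with earlier results of these data known. The labels number replicates 1 to 3 in both genotypes without saying that a number is a shared day. Same-numbered arrays deviated together from their group means (correlations over probe sets 0.372, 0.288 and 0.142 for numbers 1, 2 and 3). Homozygous replicate 3 with heterozygous replicate 2 gave 0.275, and homozygous replicate 2 with heterozygous replicate 3 gave 0.129. Number 1 with any other number gave -0.349 to -0.169. The check therefore set number 1 apart but did not tell numbers 2 and 3 apart. In the fits with a block, same-numbered arrays were treated as pairs, on the data alone. Each replicate was homogenized in several batches, per the labels' protocols, and no array batch is given.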

Additional observations from a re-analysis of the deposited data

How the results depend on the processing

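None of the 7 genes above background was called in any of 14 alternative fits each (98 in all, smallest adjusted p 0.285, largest 0.973), and 90 of the 98 kept their sign. lush, Obp28a, Obp83b and Obp99b kept it in all 14. Obp44a turned to -0.17, -0.18 and -0.080 (without homozygous replicate 1, without homozygous replicate 2, without both arrays numbered 1), Obp69a to -0.11, -0.16 and -0.87 (without homozygous replicates 1 and 2 and heterozygous replicate 2 in turn) and Obp99c to 0.49 and 0.095 (without homozygous replicate 1, without both arrays numbered 1). Leaving out 1 array gave -0.18 to 1.28 for Obp44a, -0.87 to 1.81 for Obp69a and -0.93 to 0.49 for Obp99c. Over all probe sets, 59 were called lower and 11 higher. These counts became 0 and 0 with the replicate block, which changed no call among the genes described here, 117 and 50 with it as a random block, 123 and 34 with the dimmer 50% left out, 74 and 18 with the replicate block and the dimmer 50% left out, 117 and 35 with median centring, 35 and 13 without the intensity trend, and 9 and 0 without both arrays numbered 1, added after seeing the data. Leaving out 1 array gave 6 to 54 lower and 0 to 12 higher, fewest lower without homozygous replicate 3 or heterozygous replicate 2 and most without homozygous replicate 1. Fewer arrays also leave less power, and the cause of the other shifts was not tested. Averaging several probe sets of a gene was not run, since each of the 8 genes had 1. Obp99a, under the limit throughout, was left out of these fits.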
